A study of Mus musculus with 12 samples.

Results

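The genes of MHC class I antigen presentation were followed in whole mouse islets, as 9 named genes out of 24421 in the per-library counts. They comprise the light chain B2m, the heavy chains H2-K1, H2-D1 and H2-T23, the peptide transporter subunits Tap1 and Tap2, the loading factor Tapbp, and the inducible proteasome subunits Psmb8 and Psmb9. All 9 are expressed in islets and all 9 entered the test, with between 177 and 17509 reads per library. They were chosen by name, with earlier results of these data known.

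Whole islets, the clusters of endocrine cells scattered through the pancreas, gave 2 groups of 6 bulk RNA-seq libraries. The Il22ra1βKO mice (here BKO) lacked the interleukin-22 receptor subunit alpha 1 in β cells, the insulin-producing cells, and the other group was Ins2Cre mice (here Cre), named for a Cre recombinase under the insulin 2 promoter. Both groups received a high-fat diet (HFD) for 6 weeks, and the labels used here give neither age nor sex, nor the Cre line that the BKO mice carry. Between 10356093 and 11902217 reads were assigned to genes in BKO libraries, and between 11444273 and 12397139 in Cre libraries. Nothing in the labels ties a library to its own animal, and p-values therefore speak of the spread among libraries, which may be technical. Il22ra1, the targeted gene, gives no check of the labels at this depth. It had 1 to 5 reads per library, 13 in all over the BKO libraries and 16 over the Cre libraries, and was not tested.

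Class I molecules display fragments of a cell's own proteins to cytotoxic T cells and natural killer cells. The proteasome cuts proteins into peptides, TAP carries the peptides into the endoplasmic reticulum, and tapasin (the product of Tapbp) holds the empty heavy chain and its light chain near TAP until a peptide binds. Interferons raise the transcription of most genes of this route, and in type 1 diabetes high class I expression is a known feature of islet endocrine cells.

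The promoters of B2m, the classical heavy chains and the Tap1 and Psmb9 pair are shown first, because the study removed a cytokine receptor and these stretches are where cytokine-induced factors are known to act. The windows come from RefSeq (GRCm38.p6) and run from 250 bases before to 50 bases after each annotated start, 300 bases in all, written 5′ to 3′ on the strand of the gene. Of the 9 genes 8 matched, with 9 windows because H2-K1 has 2 annotated starts, and Tap2 is the exception. Capitals mark matches, on either strand, to GAAANNGAA (the letters of an interferon regulatory factor, IRF, site) or to the NF-kB consensus, and matches that overlap form 1 capital run. The B2m window is chr2:122147437-122147736 on the plus strand, the H2-K1 window chr17:34000298-34000597 on the minus strand, the H2-D1 window chr17:35262844-35263143 on the plus strand, the H2-T23 window chr17:36032652-36032951 on the minus strand and the Tap1 window chr17:34187306-34187605 on the plus strand.
B2m: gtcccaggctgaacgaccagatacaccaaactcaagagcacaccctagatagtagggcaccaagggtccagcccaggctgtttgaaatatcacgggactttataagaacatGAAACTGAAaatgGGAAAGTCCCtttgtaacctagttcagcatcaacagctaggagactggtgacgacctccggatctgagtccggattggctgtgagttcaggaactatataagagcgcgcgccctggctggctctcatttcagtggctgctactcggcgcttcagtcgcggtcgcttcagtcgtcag
H2-K1: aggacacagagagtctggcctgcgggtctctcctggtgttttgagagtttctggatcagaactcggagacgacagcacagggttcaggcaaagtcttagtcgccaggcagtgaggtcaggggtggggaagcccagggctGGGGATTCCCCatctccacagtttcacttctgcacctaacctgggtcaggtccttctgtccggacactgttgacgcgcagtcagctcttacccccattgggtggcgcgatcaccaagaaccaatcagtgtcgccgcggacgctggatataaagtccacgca
H2-D1: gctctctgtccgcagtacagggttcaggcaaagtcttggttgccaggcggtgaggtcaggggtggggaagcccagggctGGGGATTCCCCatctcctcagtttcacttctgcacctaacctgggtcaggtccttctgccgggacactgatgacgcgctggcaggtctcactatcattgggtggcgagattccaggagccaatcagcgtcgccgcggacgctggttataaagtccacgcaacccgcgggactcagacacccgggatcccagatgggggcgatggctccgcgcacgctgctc
H2-T23: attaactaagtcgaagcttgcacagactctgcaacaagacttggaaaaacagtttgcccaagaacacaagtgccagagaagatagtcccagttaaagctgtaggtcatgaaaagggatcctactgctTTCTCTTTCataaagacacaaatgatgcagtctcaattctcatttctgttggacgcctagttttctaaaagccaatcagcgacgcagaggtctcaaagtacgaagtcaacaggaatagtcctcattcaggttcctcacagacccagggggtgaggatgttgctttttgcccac
Tap1: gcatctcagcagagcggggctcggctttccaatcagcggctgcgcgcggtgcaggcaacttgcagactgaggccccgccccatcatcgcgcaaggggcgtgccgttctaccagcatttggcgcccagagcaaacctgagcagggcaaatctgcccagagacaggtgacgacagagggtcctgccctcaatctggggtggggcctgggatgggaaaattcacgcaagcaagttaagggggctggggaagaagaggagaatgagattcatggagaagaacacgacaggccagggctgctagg

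B2m held both kinds of match close together, with capitals from position -139 relative to the start site. The NF-kB consensus was present in B2m, H2-K1 and H2-D1 and in 4.51% of all 32851 promoter windows. H2-K1 and H2-D1 carried the same capital run of 11 bases, which holds 2 overlapping matches. The IRF letters were present in B2m and H2-T23 and in 8.56% of all windows. They are 1 spelling of such a site, so a window without them may still hold another. The H2-K1 and H2-D1 windows both hold tttcacttc after the capital run, a close variant that the pattern does not match. A further search, for TTCNNNGAA (the letters of a STAT dimer site, either strand), matched Psmb8 alone among the 8 genes and 8.3% of all windows. The Tap1 window held none of the 3 patterns. In RefSeq, Tap1 and Psmb9 are divergent genes whose annotated starts lie 226 bases apart, so that their windows share 275 bases, read on opposite strands. These matches describe letters in the windows and no binding was measured.

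Transcript levels of the 9 genes in BKO islets were close to those in Cre islets, and none differed beyond the spread between libraries. The fold change, BKO over Cre, ran from 0.926 for Tapbp to 1.04 for Tap1, and the 95% intervals of the 9 genes together reached down to 0.825 and up to 1.29. With edgeR's quasi-likelihood test and Benjamini-Hochberg adjustment over all genes, 0 of 9 were called at an adjusted p of 0.05, against 0.0% of the 13583 genes tested. At an unadjusted p under 0.05 the count was again 0 of 9, against 13.4% of all genes (1815). DESeq2, which called 1.64% of all genes (223), and limma-voom, which called 0.0% (2197 genes at an unadjusted p under 0.05), also called 0 of the 9. The BKO and Cre libraries overlapped for every one of the 9 genes, while 0.508% of all genes tested (69) had groups that did not overlap. The median log2 fold change of the 9 genes was 0.014, with 6 above 0 and 3 below, and that of all genes was 0.0078, with 52.8% above 0. In bulk islets fewer cells of a type and less RNA per cell cannot be told apart, and opposite shifts in different cells could cancel in the total.

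**Figure D1:**
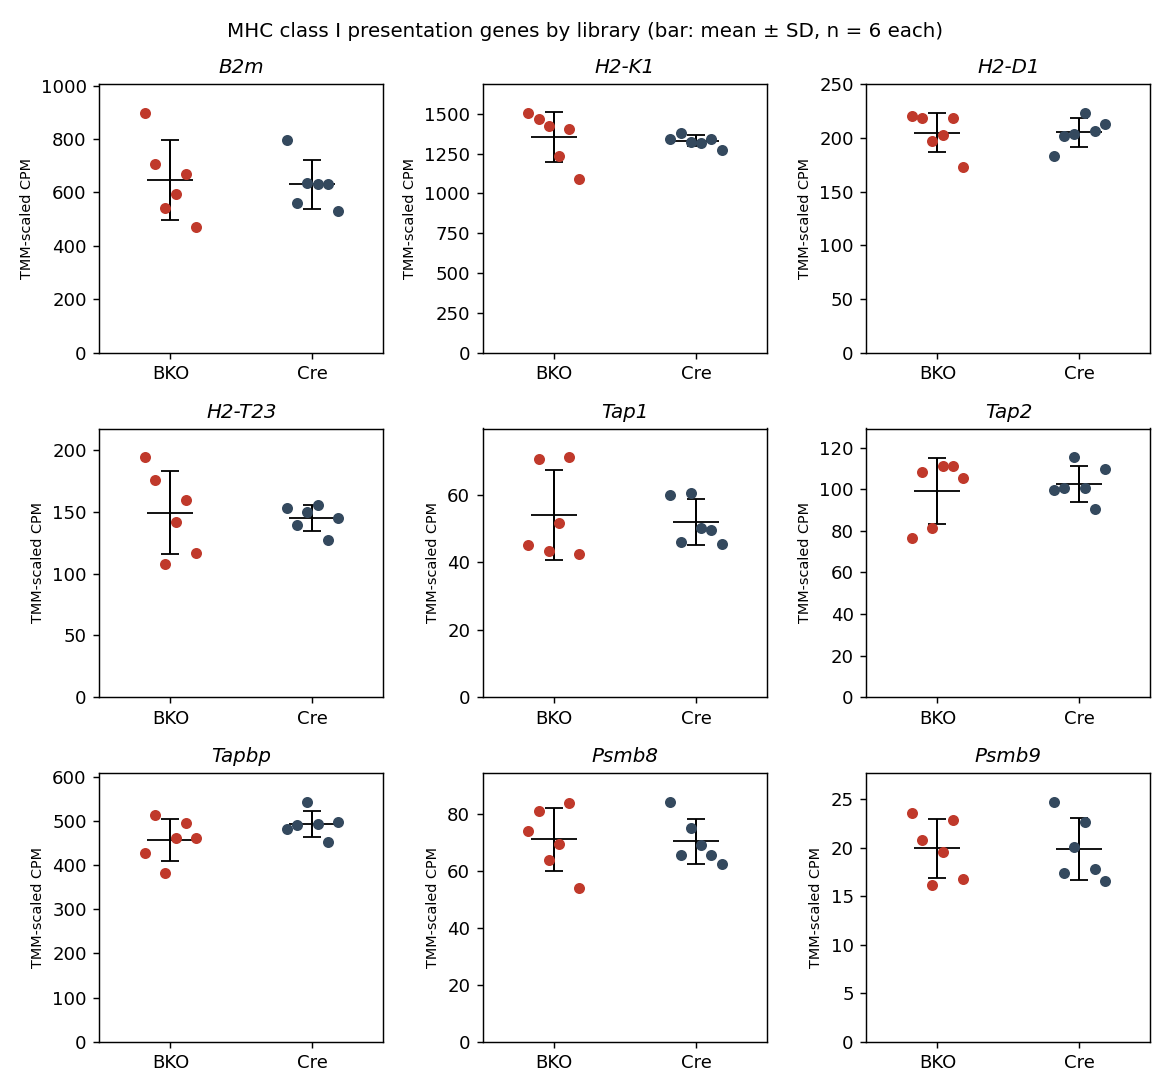
TMM-scaled read counts (CPM, vertical axis, from 0) of each of the 9 class I genes in the 6 BKO (red) and 6 Cre (blue) libraries, 1 point per library in the order 1 to 6, with the mean ± SD as bars. The groups overlap in each panel, and the BKO points are spread more widely than the Cre points in 8 of the 9.

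The light chain comes first. B2m encodes beta-2 microglobulin, which every class I molecule needs in order to fold and leave the endoplasmic reticulum. It lies at chr2:122147686-122153083 on the plus strand (mm10, ENSMUSG00000060802.8) and is the only one of the 9 outside chromosome 17. Its level, in CPM (counts scaled to a common library size, with TMM factors), had a lowest value of 471, a median of 632 and a highest of 899 in BKO libraries, and 529, 630.1 and 797 in Cre libraries. The BKO libraries lay on both sides of the Cre range, with BKO-1 above all Cre libraries and BKO-6 below all of them. The means were 647 ± 150.1 in BKO and 631 ± 92.4 in Cre (SD, n = 6 per genotype). The log2 fold change was 0.04 ± 0.14 (SE), with an edgeR adjusted p of 0.955 and an exact two-sided permutation p of 0.829. Patl2 lies opposite B2m and overlaps it. No source used here gives the strand setting of the counting, and reads of the 2 genes cannot be told apart without it.

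H2-K1 and H2-D1 encode classical heavy chains, the chains that present peptides to cytotoxic T cells, and H2-T23 encodes a non-classical chain seen by inhibitory receptors of natural killer cells. H2-K1 (chr17:33996017-34000347, minus strand) had a lowest, median and highest CPM of 1089.7, 1413 and 1508 in BKO and of 1275, 1331 and 1381 in Cre. The Cre libraries fell in a narrow band inside the BKO range, with 4 BKO libraries above it and 2 below. The log2 fold change was 0.03 ± 0.07 (edgeR adjusted p = 0.927), and the fold interval of 0.921 to 1.13 was among the narrowest of the 9.

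H2-D1 (chr17:35262730-35267499, plus strand) had 173, 211 and 220.2 CPM in BKO and 183, 205 and 224 CPM in Cre as lowest, median and highest. The groups covered nearly the same range, and the log2 fold change was -0.0021 ± 0.064 (SE; edgeR adjusted p = 0.995). H2-T23 (chr17:36029773-36032855, minus strand) had 108, 150.4 and 194 CPM in BKO and 127, 147 and 156 CPM in Cre. Here too the Cre range sat inside the BKO range. The log2 fold change of H2-T23 was 0.04 ± 0.13 (edgeR adjusted p = 0.939), and A930015D03Rik overlaps it on the opposite strand.

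Heavy chain genes are near copies of one another, so reads can be split between them or set aside as not unique, and each single gene is uncertain to that degree. Of the 50-base windows of the H2-K1 transcript, 8.11% also occur in another gene, and the shares were 14.3% for H2-D1, 15.0% for H2-T23 and 0.0% for B2m. The sum over all 32 heavy chain genes in the counts is less open to the splitting, but does not recover reads set aside as not unique. It was 2025 ± 227 CPM in BKO (1654 to 2254) and 1972 ± 41.6 CPM in Cre (1898 to 2013). The Cre libraries again fell inside the BKO range, and the log2 difference of 0.03 was smaller than the spread (exact two-sided permutation p = 0.699). H2-K1 held 67.2% of the summed reads, H2-D1 10.3%, H2-Q4 9.21%, H2-T23 7.36%, H2-Q2 3.48% and H2-M3 1.02%.

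Tap1 and Tap2 encode the 2 subunits of the transporter that moves peptides from the cytosol into the endoplasmic reticulum, and Tapbp encodes tapasin. Tap1 (chr17:34187553-34197225, plus strand) had a lowest, median and highest CPM of 42.4, 48.3 and 71.1 in BKO and of 45.5, 49.8 and 60.5 in Cre. BKO-2 and BKO-5 stood above all Cre libraries and the other 4 BKO libraries lay among or below them. Its log2 fold change was 0.06 ± 0.15 (edgeR adjusted p = 0.925), the largest above 0 of the 9 genes, with the fold interval reaching from 0.836 to 1.29.

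Tap2 (chr17:34203527-34216321, plus strand) had 76.6, 107 and 111 CPM in BKO and 90.3, 101 and 115 CPM in Cre as lowest, median and highest. BKO-1 and BKO-3 were below all Cre libraries and the other 4 BKO libraries were inside the Cre range. The log2 fold change was -0.05 ± 0.10 (edgeR adjusted p = 0.878). Gm20496 and Gm15821 overlap Tap2 on the opposite strand, and Gm20496 also lies opposite Psmb8. Tapbp (chr17:33915899-33929292, plus strand) had 381, 461 and 513 CPM in BKO and 453, 492 and 543 CPM in Cre. Of the BKO libraries 2 lay above the Cre mean and 4 below it. Zbtb22 overlaps Tapbp on the same strand, where a strand setting alone would not separate their reads, and Gm19412 overlaps it on the opposite strand. Tapbp had the largest difference of the 9, a log2 fold change of -0.11 ± 0.07 with a fold interval of 0.840 to 1.02 (edgeR adjusted p = 0.517; the exact two-sided permutation test gave p = 0.147).

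Psmb8 and Psmb9 encode inducible catalytic subunits that replace Psmb5 and Psmb6 in the immunoproteasome, the form whose products suit class I grooves, and Psmb10, the remaining inducible subunit, replaces Psmb7. Psmb8 (chr17:34197721-34201454, plus strand) had a lowest, median and highest CPM of 53.9, 71.7 and 83.9 in BKO and of 62.4, 67.5 and 84.2 in Cre, and its log2 fold change was 0.01 ± 0.10 (edgeR adjusted p = 0.977). Psmb9 (chr17:34181987-34187764, minus strand), the lowest expressed of the 9, had 16.2, 20.2 and 23.6 CPM in BKO and 16.6, 19.0 and 24.7 CPM in Cre, with a log2 fold change of 0.0074 ± 0.12 (SE; edgeR adjusted p = 0.990). The ranges of Psmb9 nearly coincided between the groups, while for Psmb8 BKO-6 lay below all Cre libraries. In GENCODE, unlike in RefSeq, the outermost bounds of Tap1 and Psmb9 overlap on opposite strands, and reads in that overlap cannot be told apart without a strand setting. Psmb10 averaged 67.7 ± 7.37 CPM in BKO and 66.2 ± 9.16 CPM in Cre islets (SD, n = 6 per genotype), and its log2 fold change of 0.03 ± 0.09 had an edgeR adjusted p of 0.925.

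The constitutive subunits are the measure to hold these against, since a ratio taken within a library needs no scaling between libraries. The log2 ratio of Psmb8 to Psmb5 reads was 0.379 ± 0.208 in BKO and 0.367 ± 0.180 in Cre (SD, n = 6 each). That of Psmb9 to Psmb6 was -2.86 ± 0.24 in BKO and -2.87 ± 0.19 in Cre, and that of Psmb10 to Psmb7 was -0.78 ± 0.21 in BKO and -0.77 ± 0.10 in Cre. The differences, 0.012, 0.017 and -0.0046, were all far inside the spread of either group (exact two-sided permutation p = 0.918, 0.887 and 0.959 in that order, each 0.959 after Benjamini-Hochberg adjustment over the 3 ratios). The Psmb10 to Psmb7 ratio in BKO fell into a higher set (BKO-1, BKO-2 and BKO-5, -0.63, -0.53 and -0.60) and a lower set (BKO-3, BKO-4 and BKO-6, -0.93, -0.98 and -0.99), with 5 of the 6 Cre libraries between them.

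**Figure D2:**
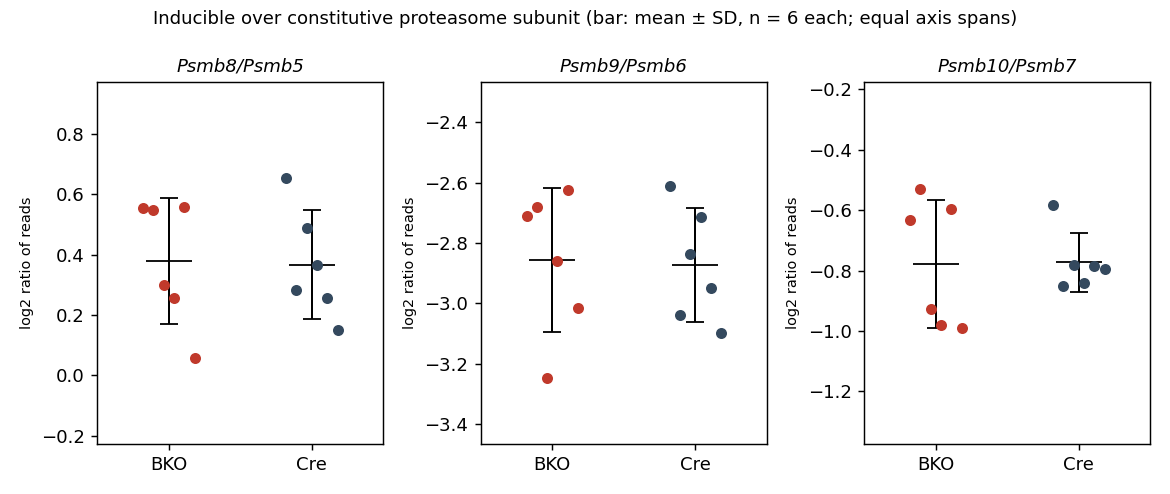
Log2 ratio of reads (vertical axes, all of the same span) of each inducible proteasome subunit to the constitutive subunit it replaces, in 6 BKO (red) and 6 Cre (blue) libraries with the mean ± SD as bars. The group means differ by at most 0.017 in either direction, and BKO libraries of the Psmb10 to Psmb7 panel sit above and below most Cre libraries.

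Per kilobase of annotated exon, the 9 genes covered a wide span of levels, in the same order in both genotypes. B2m stood first with a mean level of 752 CPM per kb in BKO and 734 in Cre, then H2-K1 with 461 in BKO and 453 in Cre, and Tapbp with 126 in BKO and 136 in Cre. H2-D1 had 79.5 CPM per kb in BKO and 79.6 in Cre, H2-T23 51.6 in BKO and 50.2 in Cre, and Tap2 26.2 in BKO and 27.2 in Cre. Psmb8 followed with 21.0 CPM per kb in BKO and 20.8 in Cre, Tap1 with 9.86 in BKO and 9.48 in Cre, and Psmb9 with 5.46 in BKO and 5.43 in Cre. Each gene in this order was above the next in all 12 libraries, except Tap2, which was above Psmb8 in 5 of 6 BKO and 6 of 6 Cre libraries. Constitutive Psmb5 had 60.2 CPM per kb in BKO and 60.4 in Cre, and Psmb6 76.7 in BKO and 77.1 in Cre, both above the inducible subunit that replaces each. Psmb10, at 39.7 CPM per kb in BKO and 38.8 in Cre, was above Psmb7, at 33.8 in BKO and 32.9 in Cre. Without division by length Psmb7 was above Psmb10, with 116 against 67.7 CPM in BKO and 112 against 66.2 CPM in Cre. Psmb8 was then above Psmb5, with 71.0 against 54.1 CPM in BKO and 70.3 against 54.3 CPM in Cre. The joined exons are 3421 bases for Psmb7 and 1705 for Psmb10, and 3381 for Psmb8 and 899 for Psmb5. Exon lengths are those of all annotated isoforms joined, so these levels and their order depend on the annotation. The longest transcript of Psmb8 has 1907 bases against 3381 of joined exon, and that of Tap2 3442 against 3781. With the longest transcripts as lengths, the mean level of Psmb8 would stand above that of Tap2 in both genotypes. The same lengths are used in every library, so the library counts do not test them.

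For most of these genes the libraries of 1 genotype lay farther from each other in BKO than in Cre, which is given here as a description with no test. The coefficient of variation (SD over mean) was larger in BKO than in Cre for 8 of the 9 genes, all but Psmb9, with a median of 15.7% in BKO and 8.52% in Cre. The contrast was widest for H2-K1, at 11.8% in BKO and 2.6% in Cre, and for H2-T23, at 22.5% in BKO and 7.22% in Cre. Among the 8529 tested genes with a mean log2 CPM of at least 4, the coefficient was also larger in BKO for most (67.5%), with medians of 8.91% in BKO and 7.2% in Cre. Per gene, the ratio of the coefficients, BKO over Cre, had a median of 1.76 over the 9 and of 1.24 over those 8529 genes. Without BKO-6 the count fell to 6 of 9, and the SD of the summed heavy chains in BKO to 153 CPM, against 41.6 CPM in Cre. Without Cre-6 the SD of that sum in Cre was 22.1 CPM, against 227 CPM in BKO.

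The extremes were spread over libraries. BKO-1 was the highest BKO library for B2m, H2-K1, H2-D1, H2-T23 and Psmb9, and the lowest for Tap2. BKO-6 was the lowest for B2m, H2-K1, H2-D1, Tap1 and Psmb8, and BKO-3 for H2-T23, Tapbp and Psmb9. BKO-5 was the highest for Tap1, Tap2 and Psmb8, and BKO-2 for Tapbp. Among Cre libraries, Cre-1 was the highest for B2m, Psmb8 and Psmb9 and the lowest for H2-D1. Cre-6 was the lowest for B2m, H2-K1, Tap1, Psmb8 and Psmb9, and Cre-5 for H2-T23, Tap2 and Tapbp. The highest was Cre-3 for Tap1, Tap2 and Tapbp, Cre-4 for H2-D1 and H2-T23, and Cre-2 for H2-K1.

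After each genotype's mean was subtracted, most pairs of the 9 genes varied together over the 12 libraries. Against the mean of the other genes, H2-D1 and H2-K1 had a positive r within BKO and a negative r within Cre. This did not hold for every pair, since within BKO the r with Tap2 was -0.113 for H2-D1 and -0.479 for H2-K1. H2-K1 hardly varied within Cre (coefficient of variation 2.6%), so its r there says little. The correlations below are across 12 libraries, which share depth and cell make-up, and are given as a description with no p. Of the 36 pairs, 32 had a positive Pearson r and 18 an r above 0.5, with a median of 0.477 and a range of -0.463 to 0.858. B2m and Psmb9, on different chromosomes, had the highest r of 0.858 (Spearman's rho 0.923), which was 0.887 within BKO, 0.876 within Cre and 0.873 without the 2 libraries farthest from the median of B2m. The divergent neighbours Tap1 and Psmb9 reached 0.592 (rho 0.601, and 0.584 without the 2 farthest libraries). H2-K1 and H2-D1 had an r of 0.649 that fell to 0.112 without BKO-1 and BKO-6, and was 0.878 within BKO and -0.415 within Cre, so that this relation rests on those libraries.

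Tap2 and Tapbp varied with each other. Their r was 0.848 (rho 0.888, 0.833 without the 2 farthest libraries, 0.824 within BKO and 0.940 within Cre). Grouped after their values were seen, B2m, H2-K1, H2-T23, Psmb8 and Psmb9 had an r of 0.402 to 0.858 among themselves (10 pairs) and of -0.463 to 0.503 with Tap2 or Tapbp (10 pairs). The place of H2-K1 among them rests on BKO-1 and BKO-6: without these libraries its r was 0.243 with B2m, 0.0519 with H2-T23, 0.323 with Psmb8 and 0.0357 with Psmb9, and within Cre it was -0.315 with H2-T23. The low values of B2m with Tap2 and Tapbp, -0.331 and 0.079, rest on the same libraries, since without them they were 0.2 and 0.399. Tap1 had an r of 0.850 with Psmb8. Against the mean of the other 8 genes, r was highest for Psmb8 (0.886) and H2-T23 (0.831) and lowest for Tap2 (0.121). Within Cre it was below 0 for H2-D1 (-0.499) and H2-K1 (-0.14), and between 0.256 and 0.791 for the other genes. Within BKO it was 0.875 for H2-D1 and 0.534 for H2-K1. Single pairs of H2-D1 within Cre reached -0.722 with Psmb8, against 0.957 within BKO.

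**Figure D3:**
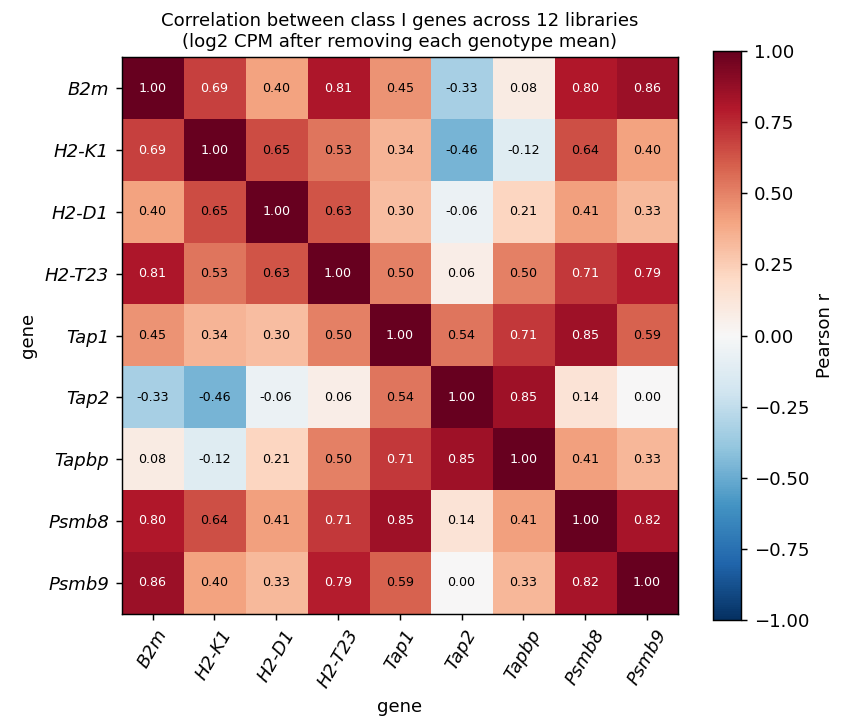
Pearson r (colour and printed value) between the 9 class I genes over 12 libraries, on log2 CPM with each genotype's mean removed. B2m, H2-K1, H2-T23, Psmb8 and Psmb9 share positive values of 0.402 or more, which for H2-K1 fall to between 0.0357 and 0.323 without BKO-1 and BKO-6. The Tap2 row is near or below 0 for B2m, H2-K1 and H2-D1 but 0.848 for Tapbp.

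The library-to-library pattern of the 9 was then compared with that of every other gene. Among 9915 genes with a mean log2 CPM of at least 3, the heavy chain family and predicted gene models left out, the 6 most alike were Irf7 (r = 0.963), Zbp1 (0.961), Bst2 (0.934), Pfkfb3 (0.901), Ly6e (0.898) and Lgals9 (0.896), over 12 libraries. The central 90% of the 9915 genes lay between -0.535 and 0.545. Irf7, a transcription factor induced by type I interferon, ranged from 99.2 CPM in BKO-6 to 232 CPM in BKO-5 and from 115 CPM in Cre-5 to 186 CPM in Cre-4. Its r was 0.995 within BKO and 0.892 within Cre. Zbp1, a cytosolic sensor of Z-form nucleic acid, was at 7.5 CPM in BKO-6 and 24.7 CPM in BKO-2, and at 9.26 CPM in Cre-6 and 19.3 CPM in Cre-1, with an r of 0.982 within BKO and 0.979 within Cre.

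Between genotypes these genes were not called either. Irf7 averaged 165 ± 55.1 CPM in BKO and 154 ± 31.3 CPM in Cre islets (SD, n = 6 per genotype), and its log2 fold change was 0.09 ± 0.23 (edgeR adjusted p = 0.923). Bst2, the tetherin that holds budding virus particles at the cell surface, averaged 88.8 ± 26.3 CPM in BKO and 87.5 ± 14.3 CPM in Cre. The largest fold change of the 6 was that of Pfkfb3, an enzyme that sets the pace of glycolysis, with 59.5 ± 32.6 CPM in BKO islets and 32.9 ± 5.80 CPM in Cre islets (log2 fold change 0.85 ± 0.32, edgeR adjusted p = 0.288). Over 15 ways of scaling or leaving out a library, Irf7 and Zbp1 were among the 6 most alike in all 15, Bst2 in 14, Pfkfb3 in 9, and Ly6e and Lgals9 in 6 each.

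**Figure D4:**
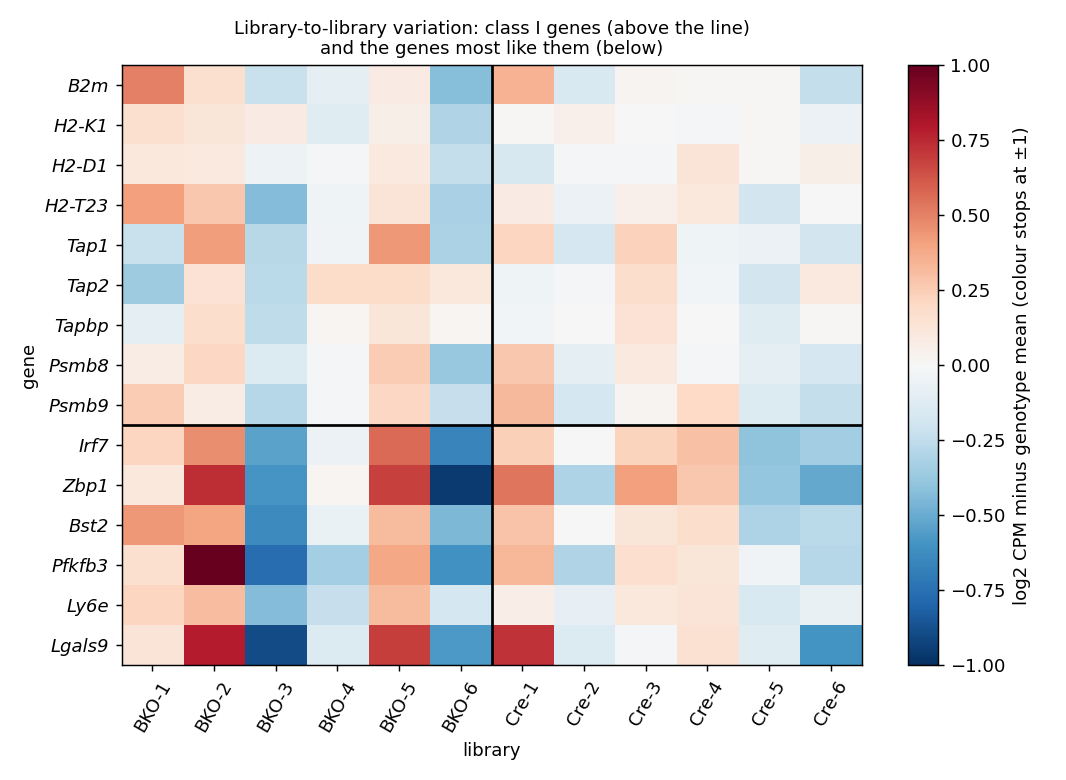
Log2 CPM minus the genotype mean (colour, stopping at 1 in either direction) for the 9 class I genes and, below the line, the 6 genes most like their mean, in the 6 BKO libraries and the 6 Cre libraries. BKO-2 and BKO-5 are above and BKO-3 and BKO-6 below the BKO mean for all 6 lower genes, and Tap2 goes the other way from B2m in BKO-1 and BKO-6.

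The likeness was uneven over the rest of the pathway. Over the 24 regulators, r to the mean of the 9 ran from -0.347 for Rfx5 to 0.853 for Stat2. Irf9 had 0.788 and Nlrc5, the transactivator dedicated to class I genes, 0.695. H2-Q4, a further heavy chain, had 0.884 and Psmb10 0.624. The general chaperones of the endoplasmic reticulum that also serve class I assembly were near 0, with 0.155 for Calr, 0.096 for Canx and 0.017 for Pdia3, and so was the peptide-trimming enzyme Erap1 at 0.070. The constitutive subunits Psmb5, Psmb6 and Psmb7 were at 0.332, -0.0088 and -0.307.

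None of the other pathway genes was called between genotypes. Of 20 further class I and class I-like chains 9 were tested, 0 were called and 0 had an unadjusted p under 0.05. Their median log2 fold change was 0.141, against 0.0078 over all genes, and H2-Q4 averaged 193 ± 30.5 CPM in BKO and 175 ± 16.5 CPM in Cre (log2 fold change 0.14 ± 0.09, edgeR adjusted p = 0.562). Of 18 genes of peptide supply, loading and trimming, 0 were called, and at an unadjusted p under 0.05 there were 0 higher and 2 lower in BKO, against 8.7% higher and 4.66% lower over all genes. The 2 were Ganab, a glucosidase subunit that trims new glycoproteins (-0.13 ± 0.05, edgeR adjusted p = 0.284), and Nrd1, a peptidase (-0.10 ± 0.05, edgeR adjusted p = 0.371). Calreticulin (Calr) averaged 918 ± 104 CPM in BKO and 986 ± 80.2 CPM in Cre.

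Among 24 regulators of class I transcription, 0 were called and the median log2 fold change was 0.044, with 16 of 24 above 0. At an unadjusted p under 0.05 there were 5 higher in BKO (Jak2, Ifngr1, Socs3, Nfkb1 and Rela) and 0 lower, against 8.7% higher and 4.66% lower over all genes. Jak2, the kinase bound to the interferon gamma receptor, averaged 64.4 ± 5.28 CPM in BKO and 56.3 ± 4.29 CPM in Cre islets, with a log2 fold change of 0.19 ± 0.07 (edgeR adjusted p = 0.222). Ifngr1, the ligand-binding chain of that receptor, averaged 29.0 ± 4.55 CPM in BKO and 24.9 ± 1.03 CPM in Cre islets, with a log2 fold change of 0.22 ± 0.09 (edgeR adjusted p = 0.278). Nlrc5 stood at 14.5 ± 4.64 CPM in BKO islets and 11.7 ± 3.64 CPM in Cre islets (log2 fold change 0.31 ± 0.23, edgeR adjusted p = 0.632).

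**Figure D5:**
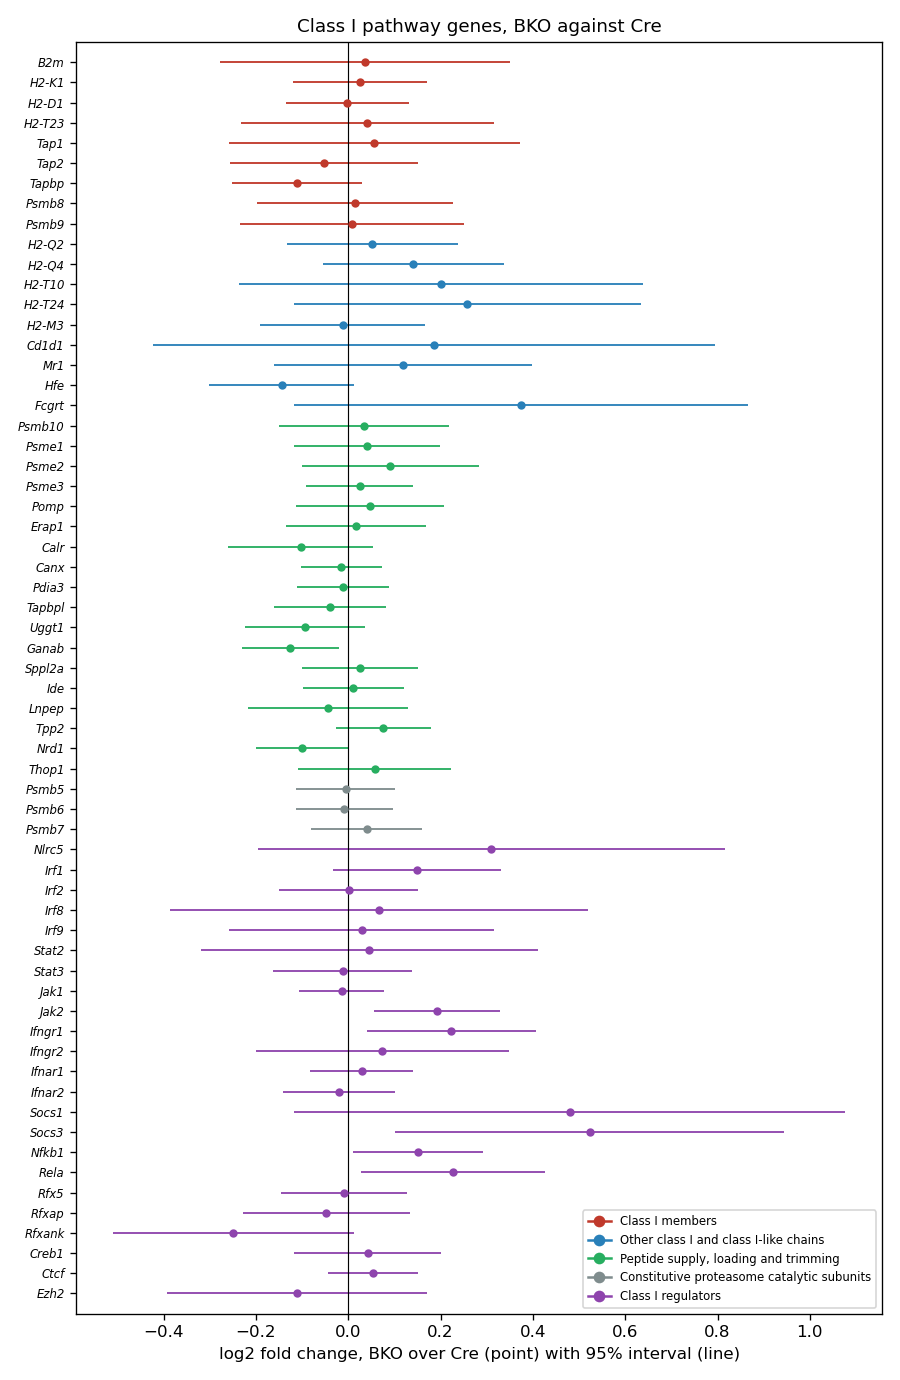
Log2 fold change, BKO over Cre (horizontal axis, point), with its 95% interval (line) for the 9 class I genes (top, red) and tested genes of the other class I lists, coloured by list. The 9 lie between -0.11 and 0.06 with intervals that include 0.

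Transcripts of the cells that read class I were close to absent. Of 16 genes of class I receptors and effector lymphocytes 15 were in the counts and 0 had enough reads to be tested. Their summed level ran from 0.375 to 1.55 CPM in BKO and from 0.331 to 1.64 CPM in Cre libraries. Cd8b1, Prf1, Ncr1 and Ifng had 0 reads in all 12 libraries, Cd8a had 0 to 5 reads per library and Gzmb, a granule protease of killer cells, 0 to 7. A count of 0 allows up to 3 reads per library, and this covers counting error only.

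Other cell types can carry class I transcripts as well, and their markers are given beside the flat class I levels. Insulin and the other β-cell markers had the highest sum of the cell type lists, with all 14 together at 98900 to 157000 CPM in BKO and at 122000 to 154000 CPM in Cre. The 16 endothelial markers, from a cell type rich in class I, were all above 0 in log2 fold change (13 at an unadjusted p under 0.05, against 8.7% of all genes, 0 called by edgeR, median 0.418), and summed to 662 to 960 CPM in BKO and 532 to 755 CPM in Cre, with 0 of them at 0 reads throughout. For the 16 macrophage and dendritic cell markers, of which 13 were tested, the median was -0.22 (1 higher and 3 lower in BKO at an unadjusted p under 0.05, 0 called by edgeR) and the sums 135 to 168 CPM in BKO and 145 to 194 CPM in Cre, with 0 of them at 0 reads throughout. At an unadjusted p under 0.05, with 0 called by edgeR, 7 of 14 stellate and mesenchymal, 6 of 13 duct and 8 of 9 alpha and delta cell markers were higher in BKO, against 8.7% of all genes, and 5 of 14 β-cell markers were lower, against 4.66%. Of 23 tested acinar markers 22 had a log2 fold change above 0 (median 0.524), the 1 with an unadjusted p under 0.05 being Bhlha15 at -0.20, and their sums were 1920 to 6680 CPM in BKO and 373 to 8580 CPM in Cre. DESeq2 called 1.64% of all genes (223). It called 0 of the 9 further class I chains, 18 peptide supply genes, 24 regulators and 3 constitutive subunits tested, lists too small for 0 to say much. Of the other lists it called 19 genes. They include Egfl7 (log2 fold change 0.49, DESeq2 adjusted p = 0.0039) and Flt1 (0.51, DESeq2 adjusted p = 0.0053) of endothelium, Rgs5 and Thy1 of stellate cells, Onecut2 and Muc1 of ducts, Gcg and Irx2 of alpha cells, the β-cell genes Glp1r (-0.36) and Pdx1 (-0.26), and Cd14 (1.26) and Itgax (-1.26) of macrophages and dendritic cells. MHC class II genes summed to 74.3 to 164 CPM in BKO and 76.7 to 148 CPM in Cre, with a median log2 fold change of 0.020 over 7 tested and 0 called. The part of these cell types in the class I levels was not tested. With the endothelial markers as a covariate the log2 fold change of Tap1 was -0.23 and 0 of the 9 genes were called. These markers were themselves higher in BKO, so the covariate takes up part of the genotype contrast. Genes at an unadjusted p under 0.05 fell from 1815 to 640 with it, and 0 calls there decide little.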

How the data were processed

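Islet RNA of 6 BKO and 6 Cre samples was extracted with TRIzol and sequenced as read pairs, per the labels' protocols. The submitters' processing notes name HISAT2 2.0.5, HTSeq and mm10. They and the labels give no HTSeq version, annotation or strand setting. The values the authors deposited per sample are raw read counts for 24421 gene symbols. A series-wide table of CPM was not used.

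The 5 summary lines of the counts stayed out of library sizes and tests. As mean shares of counted reads, reads of low alignment quality made up 18.6% in BKO and 20.2% in Cre, reads outside features 9.90% in BKO and 9.41% in Cre, reads with several alignments 5.08% in BKO and 5.02% in Cre, unaligned reads 2.43% in BKO and 2.47% in Cre, and ambiguous reads 1.21% in BKO and 1.18% in Cre.

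Genes were tested with the quasi-likelihood F test of edgeR 4.0.16 under R 4.3.3, after filterByExpr by genotype (13583 genes kept), TMM scaling and robust shrinkage, and p-values were adjusted over all of them (Benjamini-Hochberg, threshold 0.05). CPM are TMM-scaled, fold changes are BKO over Cre, and the biological coefficient of variation was 11.7%. Exact two-sided permutation tests used all 924 splits of 6 against 6 libraries, the smallest possible p being 0.00216. No pair of libraries of 1 genotype was a duplicate: chi-square over its degrees of freedom was 5.08 to 30.0 in the 30 pairs. Coordinates and overlaps are from GENCODE for GRCm38 (mm10). The floor is 3 reads.

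The 9 genes, the lists and the tests were chosen with earlier results of these data known. Named are the 9 genes, per list up to 2 tested genes with the smallest unadjusted p under 0.05 and genes needed to say what a list holds, the other proteasome subunits, Il22ra1, and the 6 genes most like the mean of the 9. Alternatives were RLE, upper-quartile and acinar-free scaling, count filters, DESeq2 1.42.0, limma-voom (limma 3.58.1), no robust shrinkage, a replicate block, endothelial and macrophage scores as covariates, and each library left out. Leaving out libraries for the coefficient of variation was added after the data were seen. The promoter letter patterns were settled after matches of other versions of the IRF and NF-kB patterns had been seen. Of the listed regulators, 1 is not reported by name here and is not drawn. The fitting steps were tested on simulated data, where edgeR called 22% of the genes changed 1.25-fold and 68% of those changed 1.5-fold. Small changes would thus often go uncalled.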

Additional observations from a re-analysis of the deposited data

Results flagged for a closer look

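In Cre-1 the CPM of Psmb10 was 84.1, against 59.5 to 66.1 in the other 5 Cre libraries, a gap of 0.729 of the range of the group. In the same library the log2 ratio of Psmb10 to Psmb7 reads was -0.582, against -0.852 to -0.781 in the other Cre libraries, a gap of 0.739 of the range. The 2 values share their Psmb10 reads. These were 2 of 46 groups of 6 values looked at for a library far from the others, and chance alone sets apart about 1 in 20. Cre-1 was also the highest Cre library for B2m, Psmb8 and Psmb9. It had 27.3% of counted reads in the line of low alignment quality, against 16.9% to 22.2% in the other Cre libraries, and the part of this in the 2 values was not tested.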

How the results depend on the processing

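The 9 class I genes had 0 calls in all 23 alternatives, with a smallest adjusted p of 0.346 and a largest log2 fold change of 0.234 in size. Of 207 values 42 changed sign, 29 of them with a library left out. The endothelial score overlaps with genotype, so 0 calls with it carry little weight. Over all genes, 0 calls became 223 with DESeq2, and over the listed genes 19, none of them among the 9. Leaving out 1 library gave 0 to 250 calls over all genes (250 without BKO-4, 110 without Cre-5, 6 without Cre-1, 5 without BKO-3) and 0 to 14 among listed genes (14 without BKO-4, 13 without Cre-5, 2 without BKO-3, 1 without Cre-1). The cause was not tested.

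The labels do not say that a number pairs libraries. The deviations of same-numbered libraries had correlations of -0.0725 to 0.264, with 4 of 6 over 0.1 and 4 of 6 highest with their own number, which is a hint of pairing from the data and not from the design. With a replicate block, 364 of 13583 genes were called, 28 of them listed (Flt1, Gcg and Onecut2 among these) and 0 among the 9. The heavy chain sum (0.030) and the ratios (0.012, 0.017 and -0.0046) had sign-flip p values of 0.625, 0.906, 0.938 and 0.906.

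Log2 fold changes took the opposite sign as follows. Psmb9 was -0.0025 with RLE, -0.0062 with no count filter and -0.0027 with DESeq2. H2-D1 was 0.0032 with upper-quartile scaling, 0.012 with the endothelial score and 0.023 with the macrophage score. With limma-voom B2m was -0.015, H2-K1 -0.024, H2-T23 -0.019 and Psmb8 -0.014. The endothelial score gave -0.23 for Tap1, -0.063 for Psmb8, -0.010 for Psmb10, 0.087 for Psmb6 and -0.026 for Ifngr1. The macrophage score gave -0.0066 for B2m and 0.012 for Psmb5.

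With 1 library left out the log2 fold changes ran from -0.088 to 0.098 for B2m, -0.014 to 0.066 for H2-K1, -0.050 to 0.026 for H2-D1, -0.055 to 0.12 for H2-T23, -0.050 to 0.11 for Tap1, -0.10 to 0.0048 for Tap2, -0.051 to 0.067 for Psmb8, -0.053 to 0.062 for Psmb9, -0.012 to 0.097 for Psmb10 and -0.033 to 0.0077 for Psmb5. The heavy chain sum ran from -0.0026 to 0.087, and the ratios from -0.031 to 0.076 (Psmb8 to Psmb5), -0.030 to 0.095 (Psmb9 to Psmb6) and -0.054 to 0.038 (Psmb10 to Psmb7). Of the 6 genes most like the 9, between 2 (without BKO-3) and 6 were shared. Depth limits the receptor and lymphocyte genes, 10 of which had 3 reads or fewer in every library.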

Other observations

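The count of heavy chain genes with reads was small. Of the 32 heavy chain genes, 10 had 0 reads in all 12 libraries, 14 had at most 1 read in each library and 10 had at least 10 reads in every library. H2-Q6, H2-Q7 and H2-T22 were among those at 0. Of their 50-base transcript windows, 32.0%, 28.4% and 35.8% in that order also occur in another gene, with 32.0% of the H2-T22 windows found in H2-T10. Whether their reads were set aside as not unique was not tested, so these genes are only listed at 0. H2-K2, with 99 to 195 reads per library, averaged 12.4 CPM in BKO and 11.6 CPM in Cre.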
